A study of Mus musculus with 12 samples.

Results

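The collagen genes are those whose symbol consists of Col, the number of the collagen type, the letter a and the number of the chain. Of the 25239 genes in the expression table, 44 carry such a symbol, and 8 of the 2643 listed m6A peaks lie on 7 of these genes. HT22 is an immortalised line derived from mouse hippocampal neurons, of wild type genotype per the labels. Control cells received 0 μM mesaconitine (MA), and MA-treated cells were exposed to 800 μM of this diterpenoid alkaloid of Aconitum plants for 72 h, dissolved in DMSO. From each group, 3 libraries of fragmented polyadenylated RNA (input) and 3 libraries enriched with an anti-m6A antibody (IP) were sequenced, 12 libraries in all, and the labels do not say whether these came from separate cultures. The deposited values used here are the base mean of each gene, which is the authors' mean normalized count over the libraries of their gene comparison, and the number of reads in each peak, which the authors summed over the 3 libraries of a group. No value of a single library was analysed, so no spread between replicates can be given and no test between groups was made. Base means give the level of a gene and not its response to MA, and the fold changes that the authors deposited beside them were not used.

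Collagens are the rope-like proteins of the extracellular matrix. Each consists of 3 chains wound into a triple helix, built from repeated Gly-X-Y triplets in which X is often proline. Fibrillar collagens form the banded fibres of connective tissue, type IV collagens form the network of basement membranes, and type VI collagens form beaded microfilaments around cells. In the brain, collagens are mainly a product of vascular and meningeal cells, although neurons also make some types. N6-methyladenosine (m6A) is a modification of adenosine in mRNA, placed by the METTL3-METTL14 complex within the DRACH consensus, in which a base other than C and a purine precede AC and a base other than G follows.

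The transcript sequences under the collagen peaks in coding exons are printed first, because they show which consensus words the peaks hold. They were read 5′ to 3′ on the transcribed strand from GENCODE release M21 on GRCm38 (mm10), and DRACH words are in capitals. The peak on Col11a2 spans chr17:34063113-34063187 on the plus strand, within exon 57 of 64. The peak on Col13a1 spans chr10:61895339-61903129 on the minus strand and covers parts of exons 7 to 10 of 41. The peak on Col17a1 spans chr19:47647800-47647849 on the minus strand, within exon 52 of 54. The peak on Col19a1 spans chr1:24559743-24575380 on the minus strand and covers parts of exons 2 to 4 of 51. On Col4a1, the first peak spans chr8:11221378-11221427 within exon 30 of 52, and the second spans chr8:11220355-11221009 across exons 31 and 32, both on the minus strand. The peak on Col4a2 spans chr8:11443154-11443228 on the plus strand, within exon 42 of 48.
Col11a2: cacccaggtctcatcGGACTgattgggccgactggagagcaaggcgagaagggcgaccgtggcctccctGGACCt
Col13a1: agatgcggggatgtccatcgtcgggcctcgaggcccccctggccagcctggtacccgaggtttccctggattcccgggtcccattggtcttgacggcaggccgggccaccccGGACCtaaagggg
Col17a1: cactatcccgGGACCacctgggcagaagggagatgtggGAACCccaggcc
Col19a1: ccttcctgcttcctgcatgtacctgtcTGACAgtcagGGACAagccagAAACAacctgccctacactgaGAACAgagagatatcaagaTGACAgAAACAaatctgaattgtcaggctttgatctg
Col4a1, exon 30: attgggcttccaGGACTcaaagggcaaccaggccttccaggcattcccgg
Col4a1, exons 31 and 32: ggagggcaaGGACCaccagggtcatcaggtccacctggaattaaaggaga
Col4a2: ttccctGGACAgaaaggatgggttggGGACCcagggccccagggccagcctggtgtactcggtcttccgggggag

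Some form of the consensus stands in each of these sequences. The only collagen peak outside coding sequence is that of Col20a1 at chr2:181017402-181017501 on the plus strand, in the 3′UTR within the last of 36 exons, and its centre lies 140 bases after the stop codon. It also holds DRACH words, AAACC and AGACC. No other annotated gene overlaps any of the 8 peaks.

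The labels name HT22 cells as hippocampal, and listed markers of neurons and of other cell types were looked up beside the collagens. Of 10 neuron markers, 4 were listed at 0, where 35.9% of all genes were, and 3 reached a base mean of 100. Map2, Snap25, Gad1 and Nefl were those at 0, Rbfox3 had a base mean of 1.15, Slc17a7 one of 0.853 and Camk2a one of 30.1. Tubb3, Syn1 and Dlg4 were present at 473, 710 and 4073. Of 9 markers listed as fibroblast or mesenchymal, 8 had a base mean of at least 100, where 41.4% of all genes did. Fn1 reached 286199.5, Vim 110058, S100a4 34113, Pdgfra 8906, Thy1 3884, Pdgfrb 1573, Postn 665 and Dcn 145.5, while Lum stood at 1.35. Markers of astrocytes, oligodendrocytes, microglia and endothelial cells all lay below 100, with Aqp4, Mog and P2ry12 listed at 0 and the highest value, 64.3, for Aif1. Among smooth muscle markers, Acta2 stood at 862, Cnn1 at 18.7 and Myh11 at 11.15. The collagen values below therefore come from cells in which 8 of 9 mesenchymal and 3 of 10 neuron markers reached a base mean of 100, and whether this relates to the collagen levels was not tested.

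The level of the collagen genes ranged from 0 to among the highest of all genes. Col3a1, a fibrillar chain of elastic tissues, had the highest base mean of the family at 134804, which ranked 12th in the table. Col1a2 and Col1a1, the chains of type I collagen, followed at 129498 and 100160, ranks 14 and 21. Those 3 genes made up 61.3% of the summed base mean of the collagen genes, and the family made up 1.49% of the base mean of all genes. A base mean of at least 10 was found for 26 of the 44 genes (59.1%, against 49.3% of all genes) and one of at least 100 for 20 (45.5%, against 41.4%). Another 8 genes (18.2%, against 35.9% of all genes) were listed at 0, namely Col6a6, Col9a1, Col14a1, Col15a1, Col24a1, Col25a1, Col26a1 and Col28a1.

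Longer transcripts yield more fragments, so the levels of collagen genes were compared after division by the length of the longest coding transcript. This length-scaled level was given in units of which the 20437 genes with an annotated coding transcript sum to 1000000, and its median over the genes above 0 was 17.5 units. Fibrillar collagens held 77.6% of the family's summed level. Their own spread was wide, since Col3a1 (1656 units), Col1a2 (1655), Col1a1 (1154), Col5a2 (518) and Col5a1 (400) lay at percentiles 97.5 to 99.5 of the genes above 0, whereas Col11a2 (3.36), Col11a1 (1.82) and Col5a3 (1.55) lay at percentiles 25.7 to 30.04. The median of the 11 fibrillar genes was 3.36 units. Col2a1, the main collagen of cartilage, had a base mean of only 9.05, and Col27a1 one of 42.7.

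**Figure D1:**
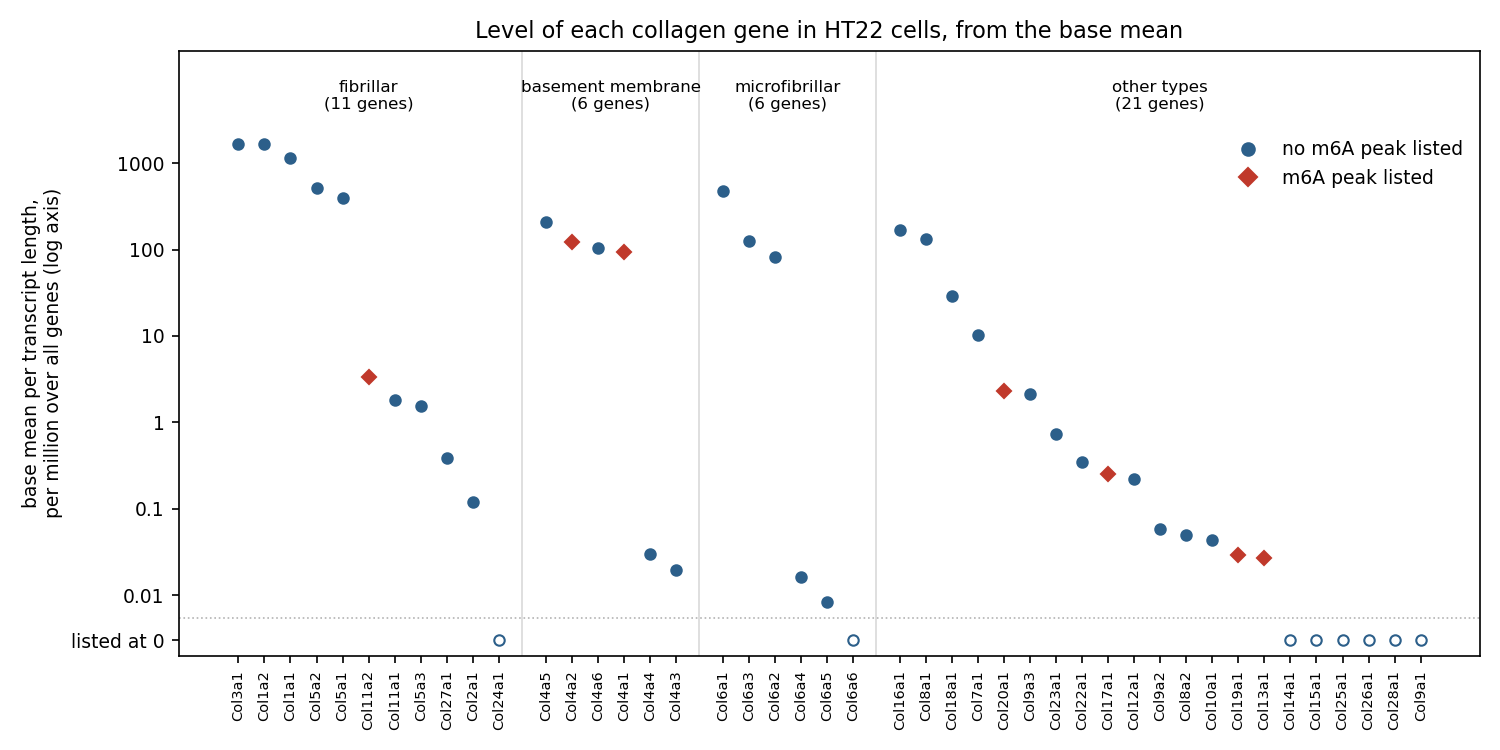
Length-scaled level of each of the 44 collagen genes on a log axis (base mean divided by transcript length, scaled to sum to 1000000 over all genes), ordered by level within 4 classes; each point is the level from the gene's base mean, red diamonds carry an m6A peak and open circles at the bottom are genes listed at 0. The 5 highest genes are fibrillar or microfibrillar with no peak listed, and the genes with a peak lie between 0.0270 and 122 units.

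Type IV genes fell into a higher and a lower group. The 4 genes Col4a5 (207 units), Col4a2 (122), Col4a6 (105) and Col4a1 (93.4) stood at percentiles 85.4 to 94.3, and Col4a4 (0.0302) and Col4a3 (0.0195), which form the glomerular network of the kidney with Col4a5, at percentiles 6.40 and 4.25. The genes of each pair lie head to head, with annotated starts 21 bases apart for Col4a1 and Col4a2 on chromosome 8, 1309 bases apart for Col4a5 and Col4a6 on the X chromosome, and 72 bases apart for Col4a3 and Col4a4 on chromosome 1. Among the 4 higher genes, the level of Col4a6 lay between those of Col4a1 and Col4a2 and below that of its partner Col4a5. The ratio of levels within a pair was 0.768 for Col4a1 to Col4a2, 1.97 for Col4a5 to Col4a6 and 0.647 for Col4a3 to Col4a4. Base means of Col4a3 and Col4a4 were only 2.44 and 4.46, so the last ratio rests on few reads.

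The 3 chains that assemble into classical type VI microfibrils were all present, and Col6a1 stood above the other two. Col6a1 stood at 474 units, Col6a3 at 127 and Col6a2 at 82.6, although Col6a1 and Col6a2 lie 85161 bases apart on the same strand of chromosome 10. The level of Col6a1 was thus 5.74 times that of Col6a2 and 3.74 times that of Col6a3, while Col6a3 was at 1.53 times Col6a2. Col6a4 and Col6a5, later additions to this family, had base means of 1.75 and 1.13, and Col6a6 was listed at 0. Microfibrillar genes made up 9.84% of the collagen level and basement membrane genes 7.59%.

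Among partners in the same fibre, Col1a1 was at 0.698 of the level of Col1a2, where the type I trimer contains more α1 than α2 chains. Col5a1 was at 0.773 of Col5a2, and Col5a3, an alternative chain of type V, was 258 times lower than Col5a1. Neither ratio has an error, because the libraries are pooled in the base mean. Col3a1 and Col5a2, which lie 24614 bases apart on chromosome 1 on opposite strands, differed 3.19-fold.

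The 21 genes of other types held 4.97% of the collagen level, and 10 of them had a base mean of at least 10. Col16a1, a collagen that associates with fibrils (166 units), and Col8a1, a short-chain collagen of vessel walls and the eye (134), lay within the range of the 4 higher type IV genes. Col8a2, which can assemble with Col8a1, stood at 0.0495 units. Col18a1, the source of endostatin, stood at 29.1 units, Col7a1, the anchoring fibril collagen of skin, at 10.4 and Col20a1 at 2.28. The transmembrane collagens were low, with base means of 60.9 for Col23a1, 20.4 for Col17a1 and 1.25 for Col13a1, and Col25a1, which is known from neurons, was listed at 0. No collagen gene shared more than 4.0% of its transcript, in stretches of 50 bases, with transcripts of other genes, and 39 of the 44 shared none.

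Of 37 genes for chain modification, folding, export and crosslinking, 30 had a base mean of at least 100, as did 41.4% of all genes. The highest base means were those of P4hb (46088), a subunit of prolyl 4-hydroxylase, Sparc (36069), a collagen-binding glycoprotein, and Serpinh1 (27706.5), the collagen chaperone HSP47. Peaks of m6A were listed on 5 of these 37 genes. Of all genes above 0, 12.5% carried one, and of those with a base mean of at least 100, 17.4% did. The 5 genes were P3h1 and P3h3 of the prolyl 3-hydroxylase family with 1 peak each, the procollagen proteinases Adamts14 and Adamts3 with 2 peaks each, and the lysyl oxidase relative Loxl4 with 2. Of the 37 genes, 4 were listed at 0, and Adamts3 with its peaks was among them. Of 12 receptor genes, 5 reached a base mean of 100. The length-scaled levels were 685 units for Itgb1, 75.25 for Mrc2 and 70.0 for Ddr2, and Ddr2, a receptor tyrosine kinase for fibrillar collagen, carried 1 peak. The integrin α subunits that pair with Itgb1 to bind collagen were low, with base means of 36.2 for Itga10, 19.5 for Itga1, 2.77 for Itga11 and 0.676 for Itga2. Of 11 turnover genes, Mmp14 stood at 407 units, Mmp2 at 288, Pepd at 32.8 and Prep at 17.0. The interstitial collagenase genes Mmp1a, Mmp1b, Mmp8 and Mmp13, and also Fap, were listed at 0. Ctsk carried 1 peak at a base mean of 7.84.

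Collagen transcripts have an unusual exon structure, which is background for where their peaks lie. The helix of fibrillar chains is encoded in exons of 54 bases or related lengths, each a whole number of Gly-X-Y triplets of 9 bases. In the longest coding transcripts, 305 of 625 inner coding exons of the fibrillar genes (48.8%) were 54 bases long and 84.0% were a multiple of 9 bases. Over all genes these shares were 0.698% and 14.3%. Type IV genes differed from the fibrillar ones, with 4.23% of exons at 54 bases and 47.2% at a multiple of 9. The shares were 8.25% and 54.4% for type VI genes and 16.9% and 55.9% for the other types.

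The helix also shapes which consensus words occur. Glycine is encoded by GGN and proline by CCN, so that a glycine codon GGA before proline spells GGACC, a DRACH word. In the coding sequences of the 44 collagen genes, 1104 of 4735 DRACH words (23.3%) were GGACC, compared with 6.95% over 20321 genes, and 84.6% of the collagen GGACC words began at the first base of a codon, compared with 21.8%. GGACC was most frequent in type IV genes, at 29.6% of DRACH words, and least in type VI genes, at 11.6%. The density of all DRACH words was 23.8 per kb of coding sequence in collagen genes and 20.9 in all genes. Col3a1 held 35 GGACC words, all in frame, and Col1a1 held 27, and neither carries a peak in the table.

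**Figure D2:**
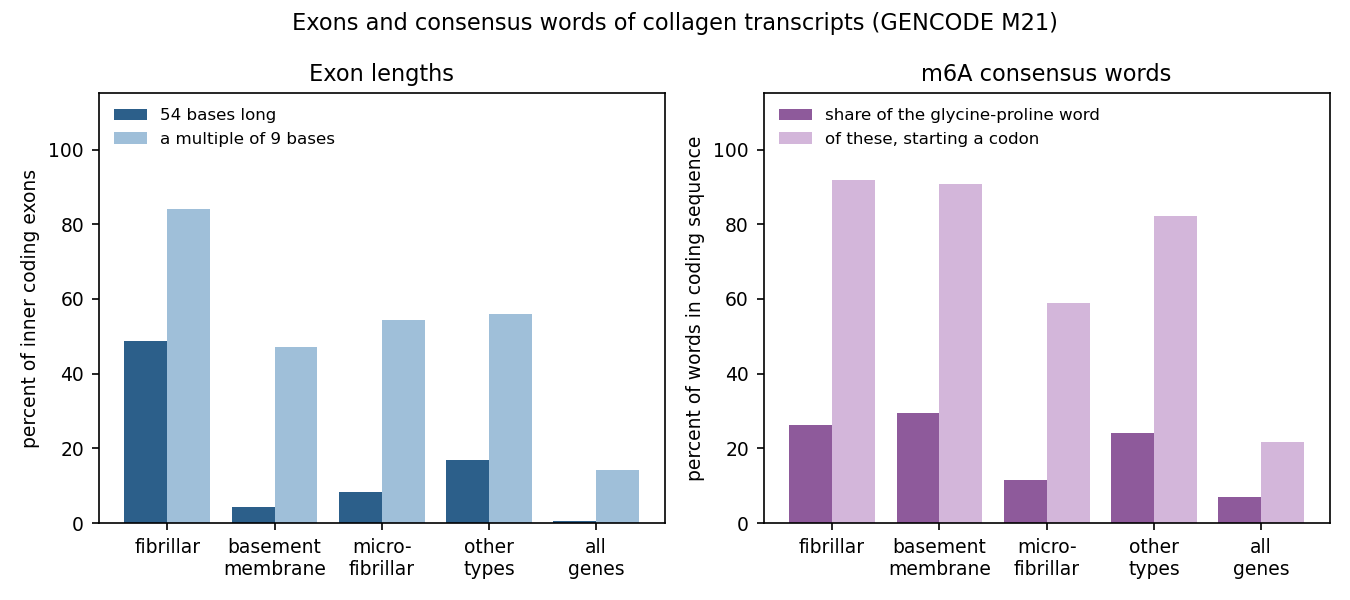
Left, percent of inner coding exons that are 54 bases long (dark) or a multiple of 9 bases (light) in each collagen class and in all genes; right, percent of DRACH words in coding sequence that are the word spelled by a GGA glycine codon and a proline codon (dark), and percent of those words that start at a codon's first base (light). Fibrillar genes have the highest share of 54-base exons, 48.8%, and type IV genes the highest share of the glycine-proline word, 29.6%.

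Collagen peaks lay on genes of very different level. Of the 11 collagen genes with a base mean of at least 10000, only Col4a2 carried a peak, and among all 749 genes at that level 7.61% did. Among the 5 between 1000 and 10000 only Col4a1 did (18.7% of all genes in that range), and among the 4 between 100 and 1000 Col11a2 and Col20a1 did (17.5%). Col17a1 was the only one of 6 between 10 and 100 (6.16%), and Col13a1 and Col19a1 were 2 of 10 above 0 and below 10 (2.08%). In total, 7 of the 36 collagen genes above 0 had a peak, or 19.4%, compared with 12.5% of all genes above 0. By class, 2 of 6 type IV genes, 1 of 11 fibrillar genes, none of 6 type VI genes and 4 of 21 other genes carried a peak. The listed peaks passed the authors' calling and come from their comparison of m6A between groups, but are fewer than the m6A peaks that the paper reports. Whether they were also selected by their change with MA is not known here, so shares over all peaks are shares over this list. The counts and percentages above therefore cover listed peaks only, and a gene without a listed peak was not shown to lack m6A.

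Of the 8 peaks, 7 lay in coding sequence, where 56.3% of the 2452 peaks placed on a coding transcript lie, and 1 in the 3′UTR, where 34.05% lie. The exon that held most of a collagen peak had a median length of 111 bases, compared with 408 bases over all placed peaks, and was shorter than 200 bases in 7 of 8 cases, compared with 36.7%. The exception was the terminal exon of Col20a1 with 1045 bases. In the collagen genes with a coding peak, the median inner coding exon is 45 to 107 bases long, and over all genes 123 bases. Short exons are thus usual in this coding sequence and not particular to the peaks. Col13a1 was the most divided peak, with 125 exonic bases over 4 exons of at most 51 bases. All 8 peaks held a DRACH word, as did 62.5% of all peaks with 50 exonic bases, 73.5% of those with 75, 88.0% of those with 100 and 90.2% of those with 125. GGACC stood in 5 of the 8 peaks, namely those of Col11a2, Col13a1, Col17a1, Col4a2 and exons 31 and 32 of Col4a1, compared with 11.0% of all placed peaks. By length, 6.35% of all peaks with 50 exonic bases held it, 9.83% with 75, 9.13% with 100 and 17.5% with 125. The word is also frequent in collagen coding sequence as a whole, at 5.54 per kb against 1.45 in all genes. In 4 of the 5 collagen peaks with GGACC it began a codon, and in Col4a2 it began at the last base of a codon. GGACT stood in the Col11a2 peak and in that of exon 30 of Col4a1, compared with 9.18% of all placed peaks. The peak on Col19a1 differed from the others by a GC content of 46.4%, where the rest held 56.0% to 68.8%, and by lying closest to the 5′ end, at 6.21% of the transcript's length.

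The depth of the peaks set how precisely they could be compared. Over all peaks, the authors' table holds 288659 input and 267002 IP reads for control cells and 214778 and 359889 for MA-treated cells, and the median peak held 231 reads in all. For collagens the sums were 1157, 929, 817 and 1463. The peaks of Col4a1, Col4a2 and Col20a1 held 684 to 1321 reads and those of Col11a2, Col13a1, Col17a1 and Col19a1 held 76 to 134. Ratios of IP to input were scaled by the summed reads of all peaks, so a value of 0 on the log2 scale is the enrichment of the average peak. The 95% intervals cover counting error only and hold nothing of the spread between libraries.

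In the Col4a1 peak of exon 30, control cells gave 169 input and 158 IP reads, and MA-treated cells 146 and 211. Its scaled log2 ratio was 0.02 in control cells (interval -0.30 to 0.33) and -0.21 after MA (-0.52 to 0.09), a change of -0.23 (-0.67 to 0.21) whose interval includes 0. In exons 31 and 32 of the same transcript, 175 bases further on, the reads numbered 385, 285, 239 and 412 in the same order. There the scaled log2 ratio was -0.32 in control cells and 0.04 after MA, a change of 0.36 (0.04 to 0.68). The changes of both Col4a1 peaks differed by 0.59 (0.05 to 1.13). Relative to all peaks, IP reads changed by -0.01 (-0.31 to 0.28) in exon 30 and by 0.10 (-0.12 to 0.32) in exons 31 and 32. Both of these intervals include 0. Input reads changed by 0.22 (-0.10 to 0.54) and by -0.26 (-0.49 to -0.03), so most of the difference between the peaks lay in the input.

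In the Col4a2 peak, control cells gave 237 input and 133 IP reads, and MA-treated cells 120 and 331. As in the peaks of Col4a1, Col19a1 and Col20a1, IP reads before scaling were below input reads in control cells and above them after MA. Over all peaks, the median unscaled ratio of IP to input moved likewise, from 0.958 in control cells to 1.84 after MA. The scaled log2 ratio of the Col4a2 peak was -0.72 in control cells (-1.02 to -0.41) and 0.72 after MA (0.41 to 1.02). The change of 1.43 (1.01 to 1.86), or 2.70-fold, stood at percentile 89.97 of all peaks. It exceeded the changes of both peaks on Col4a1, the other chain of the same trimer, by 1.67 (1.05 to 2.28) and 1.07 (0.54 to 1.61). On the scale of reads, input fell by 0.55 (interval -0.87 to -0.24) and IP rose by 0.88 (0.59 to 1.17) relative to all peaks, and the change of the ratio is the difference of these values.

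The Col20a1 peak in the 3′UTR held 295 input and 263 IP reads in control cells, and 251 and 333 after MA. Its change of -0.28 (-0.62 to 0.05) had an interval that included 0. Its enrichment was below that of the average peak after MA, at -0.34 (-0.57 to -0.10).

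Reads were few in the other 4 peaks. Col17a1, a hemidesmosomal transmembrane collagen, had 19 input and 25 IP reads in control cells, 19 and 71 after MA, and its change was 0.63 (-0.49 to 1.75). Col19a1, a collagen of basement membrane zones that is also made by interneurons, had 23, 17, 15 and 50 reads in that order and a change of 1.27 (0.06 to 2.49). Both intervals are wide, and that of Col17a1 includes 0. Col13a1 had 8, 20, 17 and 31 reads and a change of -1.28 (-2.71 to 0.15), and Col11a2 had 21, 28, 10 and 24 reads and a change of -0.04 (-1.36 to 1.28).

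**Figure D3:**
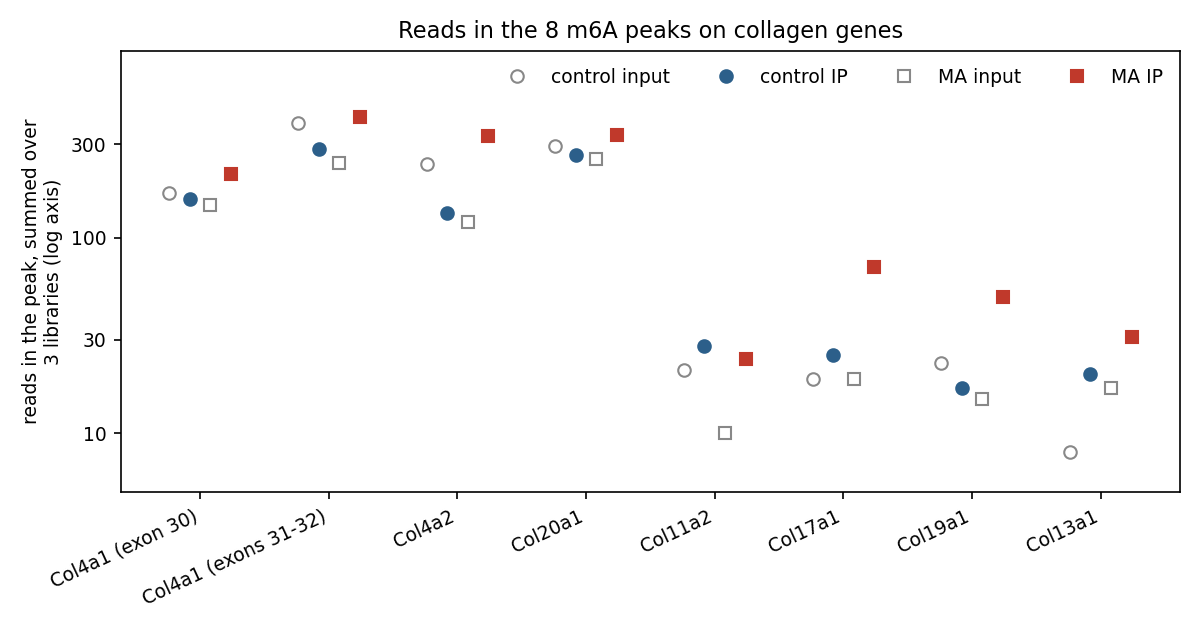
Reads in each of the 8 collagen peaks on a log axis, summed over 3 libraries, for control input (open circles), control IP (filled circles), MA input (open squares) and MA IP (filled squares). MA IP is the highest of the 4 sums in every peak except Col11a2, where control IP is, before scaling for the larger MA IP total.

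By the fold of the scaled ratio, 3 of the 8 collagen peaks (Col4a2, Col19a1 and Col17a1) were higher by more than 1.5-fold after MA, where 29.1% of all 2643 peaks were. Col13a1 was the only peak lower by more than 1.5-fold, where 24.1% of all peaks were. Higher and lower are relative to the summed reads of all peaks, so a change shared by all peaks would not show. In either direction, 4 of 8 collagen peaks and 53.2% of all peaks were past 1.5-fold, so the share in collagens was near the background. The median change was 0.16 over the 8 peaks and 0.05 over all peaks. Counting intervals lay above 0 for 3 collagen peaks (Col4a2, Col19a1 and exons 31 and 32 of Col4a1) and below 0 for 0, whereas they did so for 24.2% and 21.4% of all peaks. When size factors by the median of ratios were used as the scale, only Col4a2 kept an interval above 0, at 1.33 (0.90 to 1.76). With that scale, 20.85% of all peaks had an interval above 0 and 24.86% had one below 0. The change of Col19a1 was then 1.17 (-0.04 to 2.38) and that of exons 31 and 32 of Col4a1 0.26 (-0.06 to 0.58), and the interval of Col20a1 lay below 0, at -0.38 (-0.72 to -0.05).

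**Figure D4:**
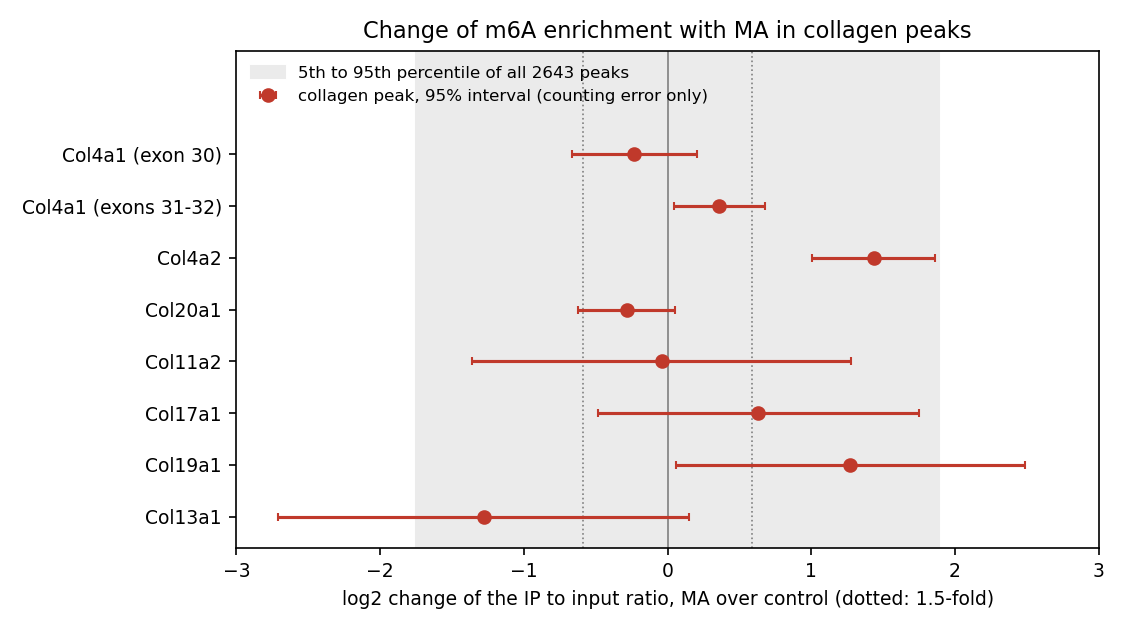
Change of the IP to input ratio after MA on the log2 scale for each collagen peak (points) with 95% intervals for counting error, over the 5th to 95th percentile of all 2643 peaks (grey) and with 1.5-fold marked by dotted lines. The Col4a2 peak, at 1.43, is the only one of the 8 whose interval lies wholly beyond 1.5-fold.

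Input reads in peaks are the only values of RNA without enrichment given for each group, and they cover 50 to 125 exonic bases of a gene. They were not taken as the expression of the whole gene. In a bulk culture, fewer cells of a kind and less RNA per cell cannot be told apart. Relative to all peaks, input in the Col11a2 peak fell by more than 1.5-fold after MA, with a log2 change of -0.61 (-1.67 to 0.46), where 16.1% of all peaks did. It rests on 21 against 10 reads and was no longer past 1.5-fold with the median of ratios (-0.56) or with 1 added to each count (-0.57). Input in the Col13a1 peak rose by more than 1.5-fold, with a change of 1.47 (0.29 to 2.65), where 10.4% did, from 8 to 17 reads. These 25 input reads exceed the 7.48 normalized counts of the whole gene, if its base mean covers the input libraries. The change is therefore one of reads in the peak and not shown for the gene. In either direction, 2 of 8 collagen peaks and 26.5% of all peaks were past 1.5-fold. In the deeper peaks the log2 changes of input were 0.22 (-0.10 to 0.54) and -0.26 (-0.49 to -0.03) for both Col4a1 peaks, -0.55 (-0.87 to -0.24) for Col4a2 and 0.19 (-0.05 to 0.44) for Col20a1. Both peaks of Col4a1 thus gave input changes of opposite sign for 1 transcript, and without scaling both were negative, at -0.21 and -0.69.

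Finally, the input reads of a peak were set beside the level of its gene. Over 2359 peaks, the input reads per 100 exonic bases were a median of 0.955 times the gene's normalized counts per 100 bases of transcript. Those counts are summed over the 6 input libraries that the base mean was assumed to cover, whereas the peak reads are not normalized. The ratio was 0.768 and 1.52 for the Col4a1 peaks, 0.445 for Col4a2 and 1.40 for Col11a2. It was 27.2 for Col20a1, 34.7 for Col17a1, 84.5 for Col13a1 and 120 for Col19a1, at percentiles 96.0 to 98.4 of all peaks. On that assumption, the base mean of Col13a1 amounts to 7.48 normalized counts over 6 libraries for the whole gene, while its peak alone held 25 input reads. For Col19a1 these numbers were 10.9 and 38. For Col20a1 and Col17a1 the peak held fewer input reads than the whole gene, 546 against 1005 and 38 against 122, and only the density per base was higher. The cause was not tested.

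**Figure D5:**
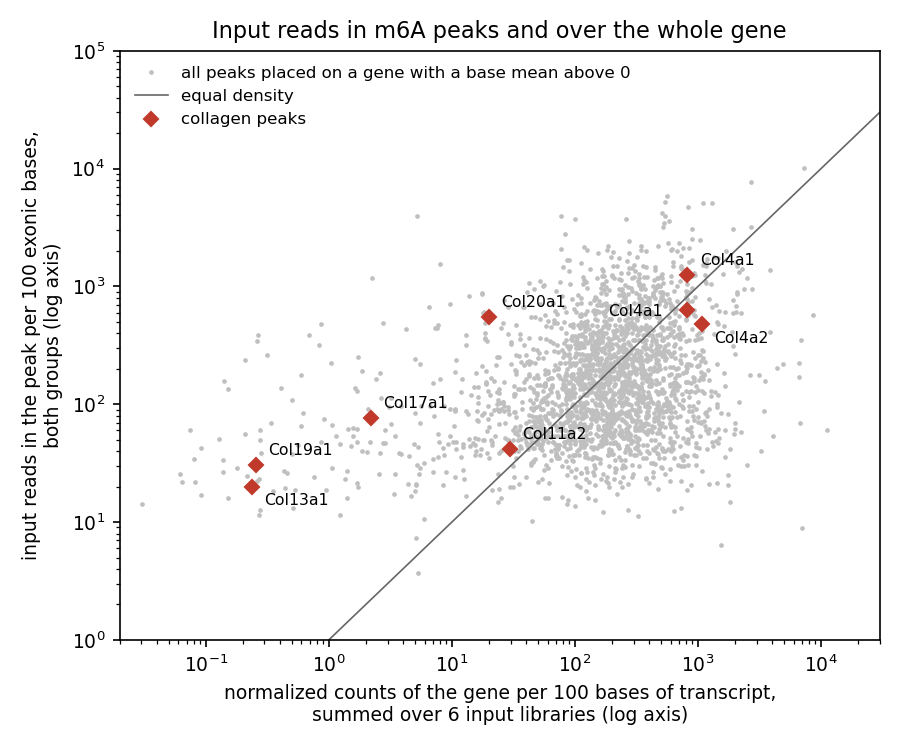
Input reads per 100 exonic bases of each peak, both groups summed, against the normalized counts of its gene per 100 bases of transcript summed over the 6 input libraries that the base mean was assumed to cover, both on log axes, for all placed peaks on genes above 0 (grey) and the 8 collagen peaks (red). Col19a1, Col13a1, Col17a1 and Col20a1 lie 27.2 to 120 times above the line of equal density, and the Col4a1, Col4a2 and Col11a2 peaks lie near it.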

How the data were processed

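Input and anti-m6A IP libraries of control and MA-treated HT22 cells were grouped as labelled, 3 of each kind. Per the study's methods, read cleaning used fastp, alignment HISAT2 (mm10), gene levels StringTie with DESeq2, and peaks exomePeak2, with versions not given in the sources used here. Library adapters carried molecular identifiers, and whether counting used them is not given either. Base means, which the authors deposited as a normalized signal (DESeq2's mean of scaled counts), were assumed to cover the 6 input libraries alone, which no source used here states. The read counts per peak deposited by the authors are summed over replicates. The number of columns of single libraries left out is 0. The deposited fold changes, log2 ratios, standard errors and p-values hold the authors' own comparisons and were not used, so changes of whole genes are not reported.

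Files were read with Python 3.11.15, numpy 2.4.6 and pandas 2.3.3, and plots were drawn with matplotlib 3.10.9. Peaks were placed on the coding transcript of the named gene with most exonic bases in the peak (GENCODE M21, GRCm38, the assembly of mm10). Ratios used 0.5 added to each count, the sum over all 2643 peaks as scale, and 95% intervals from the counts alone. The simulated counts used to check these intervals held counting error only, with no variation between libraries. That check therefore cannot show how the intervals cover in real replicates. Levels are base means divided by the length of the gene's longest coding transcript. Because the tables pool libraries, no test and no p-value was computed, and depth is given as reads per peak. DRACH was searched on the transcribed strand only. Collagen genes with a base mean of at least 100 or a peak were named, with the 3 highest genes of each pathway list and all with a peak, and every marker. Other genes were named after their values were seen. The members and lists were chosen with earlier results of these data known.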

Additional observations from a re-analysis of the deposited data

How the results depend on the processing

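No paired analysis was possible because the reads of the replicates are summed in the tables, and for the same reason no replicate could be left out. With a minimum base mean of 1 or 100 in place of 10, 36 or 20 collagen genes were counted, and 7 genes carried a peak also by exon overlap and with at least 50 reads a peak. After division by length, the collagen share of all genes was 0.695%. With the mean length of coding transcripts, the class medians were 2.75 (fibrillar), 82.1 (basement membrane), 32.3 (microfibrillar) and 0.0663 (other types) units, against 3.36, 99.3, 41.3 and 0.0582.

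Scaling mattered most for the peaks. Without scaling, 6 collagen peaks were higher and 0 lower in the IP to input ratio, with a median change of 1.02. In input reads, 4 were lower, with a median of -0.42. Over all peaks, the median unscaled ratio also rose, from 0.958 in control cells to 1.84 after MA. Shares of all peaks past a threshold were not computed for these alternatives, so the counts here have no background share beside them. Size factors by the median of ratios gave medians of 0.0595 for the ratio and 0.06096 for input, and 0 peaks lower in input, since Col11a2 was at -0.56. With 1 added to each count the medians were 0.14 and 0.01795, with 0 peaks lower in input. At a threshold of 1.2-fold, 2 peaks were lower in the ratio, and 2 were higher and 2 lower in input. Col4a2 alone kept a counting interval above 0 with the median of ratios, where 20.85% of all peaks had one. At 2-fold, 0 were lower in input. Without scaling, the changes of the ratio in the Col20a1 peak and in exon 30 of Col4a1, whose intervals included 0, turned to 0.57 and 0.63, that of Col11a2 turned to 0.82, and that of Col4a2 was 2.29. With the median of ratios, Col17a1 fell below 1.5-fold, at 0.53. No peak past 1.5-fold in the ratio changed its sign under these alternatives. Depth limits the peaks of Col11a2, Col13a1, Col17a1 and Col19a1, with 8 to 71 reads a group.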
